A study of Mus musculus with 16 samples.

Results

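Antigen-activated bone marrow-derived mast cells (BMMCs) that had been treated with dexamethasone (DEX) were compared with activated cells that had not. The 4 samples labelled IgE DNP DEX and the 4 labelled IgE DNP, out of 16 in the series, were chosen by their treatment label, and each treatment held 2 samples of PEP+/+ cells and 2 of PEP-/- cells, which lack the tyrosine phosphatase encoded by Ptpn22. All cells came from bone marrow of male C57BL/6 mice aged 8 to 10 weeks, grown for 4 weeks with stem cell factor and IL3. All 8 samples were sensitized with IgE (0.05 µg/ml per the labels, 3 h) and given antigen, dinitrophenyl groups on albumin (DNP, 200 ng/ml, 1 h), so that the treatments differed by DEX alone (100 nM, 8 h). The other 8 samples of the series had the same sensitization without antigen. The number of mice or cultures behind the samples is not given in the sources used here, so the p-values measure the spread between these samples.

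Mast cells carry IgE on the high-affinity receptor FcεRI. Antigen that cross-links this IgE starts kinase and calcium signalling, which releases the granules at once and then switches on cytokine and chemokine genes through NFAT, NF-kB and AP-1. Glucocorticoids such as DEX bind the glucocorticoid receptor, a transcription factor that raises some genes directly and is known for lowering inflammatory genes, and they are used against allergic disease.

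In activated cells, DEX lowered most of the cytokine and chemokine genes that were expressed, together with many early response, DNA replication and cholesterol synthesis genes. It raised 16 of 29 known glucocorticoid targets, 21 of 52 lysosomal genes and 8 of 15 clock genes. In the same 3 lists 7, 2 and 4 genes were lower. Of 12050 genes tested with edgeR, 3554 (29.5%) were called at an adjusted p under 0.05, of which 1824 (15.1% of all tested) were higher with DEX and 1730 (14.4%) lower. The change was at least 1 on the log2 scale for 547 of the higher and 457 of the lower genes, and at least 2 for 160 and 76. All 4 pairs of samples moved the same way for 3442 of the called genes, where a pair shares genotype and replicate set (titles 1 to 8 or A to H). Counts of called members of a list below are to be read against these 15.1% higher and 14.4% lower. Counts given without the replicate set as a term (the set term) have a lower baseline. That fit called 640 genes higher and 554 lower over all 12050. All 4 samples with DEX lay above all 4 without for 9.13% of all genes tested and below for 8.3%. The median log2 fold change over all genes tested was 0.03. Levels below (CPM) are counts scaled to the total of each library over the genes kept, after that total was multiplied by its TMM factor. These factors ranged from 0.8166 to 1.183 over the 16 samples. The levels are not corrected for gene length, so they compare samples and not genes. Where 4 values are given, their order is PEP+/+ (titles 1 to 8), PEP+/+ (A to H), PEP-/- (1 to 8) and PEP-/- (A to H). In bulk samples, fewer cells of a type and less RNA per cell cannot be told apart.

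The libraries held 8612531 to 20547141 reads on genes. Ptpn22 stood at 79.9 and 105 CPM in the PEP+/+ samples with IgE DNP and at 1.39 and 3.04 CPM in the PEP-/- samples, as each library's genotype label states. The 10 mast cell markers summed to 75861 to 90826 CPM without DEX and 84142 to 106979 CPM with it, and 3 of the 10 were called higher and 0 lower. Marker sums of T cells, B cells, neutrophils and fibroblasts reached at most 2.26 CPM in any sample, those of eosinophils, erythroid cells and megakaryocytes at most 11.3 CPM, and those of dendritic cells 15.9 to 44.3 CPM without and 18.9 to 34.5 CPM with DEX. Of 2 tested erythroid markers 1 was called higher, the globin gene Hba-a1 (0.0553 to 0.409 CPM without and 1.91 to 6.11 CPM with DEX), and of 3 tested dendritic cell markers 1 was called lower, the integrin gene Itgax (log2 fold change -1.61). The 9 macrophage markers summed to 21.8 to 50.2 and 30.9 to 57.6 CPM, with C1qa at 0 throughout and 1 of 4 tested markers, C1qc, called higher. The 4 basophil markers summed to 2719.6 to 4316 and 2891 to 4389.6 CPM, mostly from Itga2b, and 1, Cd200r3, was called lower. The basophil protease genes were low, Mcpt8 at 22.5 to 46.5 CPM without and 10.4 to 62.7 CPM with DEX. Prss34 had 14 to 36.6 and 11.9 to 59.3 CPM. The share of reads not placed on a gene was 31.3 to 40.7% without DEX and 38.0 to 49.6% with DEX, and the part of this difference in the results was not tested.

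Secreted cytokine genes were lowered almost as a whole. Of 44 listed cytokine genes 23 were expressed enough to be tested, and 18 were called lower and 1 higher, against 14.4% and 15.1% of all genes. In this and every list, a gene could be kept for testing through its level in 1 treatment alone. Csf2, for example, had 5, 19, 2 and 2 reads with DEX. The part of this filter in the counts was not tested. The median log2 fold change of the cytokine genes tested was -1.26. All 4 samples with DEX lay below all 4 without for 15 of the 23, against 8.3% of all genes tested, and above for 1, against 9.13%. Without the replicate set as a term, 14 were called lower and 1 higher.

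Il13 encodes a type 2 cytokine that drives mucus and IgE production in allergy. It stood at 619, 706, 266 and 319 CPM in activated cells and at 24.3, 38.4, 11.3 and 18 CPM with DEX. Every sample with DEX was far below every sample without it, and within each treatment the PEP-/- samples were the lower ones. The difference was 20.5-fold (log2 fold change -4.36, SE 0.13, adjusted p = 1e-07). Sensitized cells without antigen had a mean of 4.3 CPM, so the level with DEX and antigen (23.0 CPM) was still above it. Tnf, the gene of a granule-stored and newly made inflammatory cytokine, had 427, 467, 156 and 186 CPM and with DEX 25.9, 33.5, 17.7 and 28.7 CPM. The groups did not overlap, and the 4 samples with DEX lay closer together than the 4 without. The fall was 10.5-fold (log2 fold change -3.39, SE 0.22, adjusted p = 3.63e-06).

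Csf2 encodes GM-CSF, a growth factor for myeloid cells. Its values were 8.22, 21.5, 3.27 and 7.69 CPM without DEX and 0.65, 1.19, 0.156 and 0.191 CPM with it, an 18.3-fold fall (log2 fold change -4.19, SE 0.25). The spread within each treatment was wide, yet the groups were apart. Il1a, the gene of the alarm cytokine IL-1α, went from 39.2, 49.9, 22.6 and 56.6 CPM to 1.04, 4.0, 1.4 and 3.06 CPM, 17.5-fold lower (log2 fold change -4.13, SE 0.23). Il33, the gene of another cytokine of the IL-1 family that acts on mast cells themselves, went from 8.03, 10.1, 8.43 and 19.9 CPM to 0.26, 1.38, 0.702 and 2.11 CPM, 10.3-fold lower (log2 fold change -3.36, SE 0.26). Both genes are among the 10 largest falls, which were chosen among genes with groups apart. The exception to the direction was Tnfsf4, the gene of the T cell costimulator OX40 ligand, which rose from 11 ± 2.2 to 27.1 ± 3.07 CPM (SD, n = 4; log2 fold change 1.32, SE 0.16, adjusted p = 0.000189).

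Upstream sequences were searched for binding motifs of the factors known to act on these groups. The 250 bases before each RefSeq start site (build GRCm38.p6) were read on both strands for 8 motifs. Promoters of 8942 of the 12050 genes tested could be matched. A match is a match of letters in this window and shows no binding. The NFAT core GGAAAA was found in 5 of 14 matched cytokine genes called lower (35.7%) and in 6 of 18 matched ones tested (33.3%). Its share was 21.4% of all tested genes and 20.4% of all promoters. The AP-1 motif TGANTCA was found in 4 of the 14 (28.6%) and in 4 of the 18 (22.2%). Its share was 5.49% of all tested genes and 6.75% of all promoters. Il13 (chr11:53634703-53634952, minus strand) and Il1a (chr2:129309973-129310222, minus strand) are shown as 2 of the 3 cytokine genes with the lowest p-value, with the NFAT core of Il13, which reads TTTTCC in this direction, and the AP-1 motif of Il1a in capitals. Each is written 5′ to 3′ and ends at the base before the start site.
Il13: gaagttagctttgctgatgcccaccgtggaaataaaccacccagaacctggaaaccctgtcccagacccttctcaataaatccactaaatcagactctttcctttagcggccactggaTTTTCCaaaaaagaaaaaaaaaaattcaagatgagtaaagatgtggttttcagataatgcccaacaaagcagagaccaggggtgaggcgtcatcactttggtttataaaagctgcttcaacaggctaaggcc
Il1a: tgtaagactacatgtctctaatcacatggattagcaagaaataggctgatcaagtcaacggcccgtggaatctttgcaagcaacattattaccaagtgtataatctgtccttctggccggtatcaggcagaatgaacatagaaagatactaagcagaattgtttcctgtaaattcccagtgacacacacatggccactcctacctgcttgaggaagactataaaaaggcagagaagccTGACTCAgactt
The NFAT core of Il13 lies 132 to 127 bases before the start and the AP-1 motif of Il1a 12 to 6 bases before it.

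**Figure D1:**
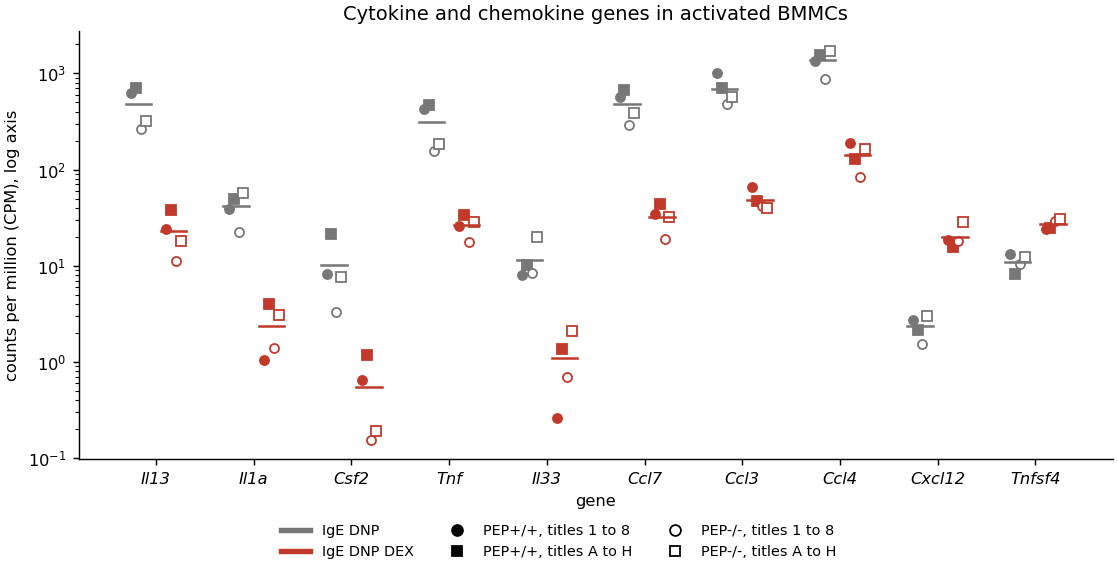
CPM of 10 cytokine and chemokine genes on a log axis, 1 point per sample, with IgE DNP and IgE DNP DEX side by side and marker shapes for genotype and replicate set. The 8 genes at the left are lower in all 4 samples with DEX, and Cxcl12 and Tnfsf4 at the right are higher in all 4.

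Chemokine genes behaved much as the cytokine genes did. Of 14 tested, 9 were called lower and 1 higher, with a median log2 fold change of -1.59. All 4 samples with DEX lay below those without for 7, against 8.3% of all genes. Without the set term 7 were called lower. Ccl7 encodes a monocyte attractant and went from 569, 668, 293 and 391 CPM to 34.5, 44.1, 18.8 and 32.3 CPM, a 14.4-fold fall (log2 fold change -3.85, SE 0.13, adjusted p = 1.09e-07). Ccl3 encodes MIP-1α, which attracts granulocytes and monocytes, and went from 1003, 708, 479.8 and 571 CPM to 65.1, 47.1, 41.7 and 39.8 CPM, a 13.8-fold fall (log2 fold change -3.79, SE 0.15). Ccl4 encodes the related MIP-1β and went from 1326, 1534, 878 and 1717 CPM to 188, 129, 83.4 and 163 CPM, 9.39-fold lower (log2 fold change -3.23, SE 0.24). No sample overlapped between treatments in these 3 genes, but this is not a result. The 3 genes are among the largest falls, which were chosen among genes with groups apart. Sensitized cells had means of 2.64, 9.08 and 4.61 CPM for Ccl7, Ccl3 and Ccl4. Cxcl12, which encodes a chemokine that holds blood cell precursors in bone marrow, rose from 2.37 ± 0.659 to 20.1 ± 5.54 CPM (log2 fold change 3.09, SE 0.23, adjusted p = 9.98e-06).

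Of 13 growth factor genes tested, 7 were called lower and 2 higher (median -0.51), but 2 and 1 without the set term. Inhba, which encodes an activin subunit, fell from 1.95 to 0.28 CPM (log2 fold change -2.75, SE 0.34), and Tgfa fell from 5.6 to 1.39 CPM with overlapping groups. Hbegf, another ligand of the epidermal growth factor receptor, fell from 50.3 to 27.4 CPM, also with overlap. Bmp2 and Gdf15 rose, from 1.19 to 3.09 and from 2.81 to 4.37 CPM, the latter with overlap.

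The genes that carry the antigen signal to the nucleus changed in both directions. Early response transcription factors were lower in 18 of 33 tested genes and higher in 5 (median -0.53). All 4 samples with DEX were below in 13 and above in 3, against 8.3% and 9.13% of all genes. The 5 higher (15.2%) and the 3 above were near the shares of all genes. Atf3, a stress-induced repressor, stood at 114, 196, 95.2 and 184 CPM without DEX and 14, 23.1, 26.2 and 25.4 CPM with it. Nr4a3, an orphan nuclear receptor gene, stood at 839, 953, 505 and 948 CPM against 174, 285, 162 and 266 CPM. Both genes were clearly separated (log2 fold changes -2.66, SE 0.20, and -1.85, SE 0.14, adjusted p = 9.22e-06 each). Nr4a1 of the same receptor family fell from 116 ± 22.1 to 37.5 ± 4.09 CPM. Among those that rose, Id1, an inhibitor of helix-loop-helix factors, went from 0.491 to 3.96 CPM, Klf10 from 146 to 230.4 CPM and Klf2 from 10.1 ± 7.49 to 22.2 ± 16.8 CPM, where the groups overlapped. Without the set term 11 early response genes were lower and 2 higher.

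Of 12 NFAT and calcineurin genes tested, 7 were called lower and 0 higher (median -0.53). All 7 were below in all 4 samples, against 8.3% of all genes, though 3 were called lower without the set term. The calcineurin inhibitor Rcan1 fell from 70.6 ± 8.72 to 37.9 ± 6.71 CPM, its relative Rcan3 from 59.9 to 38.7 CPM, and Nfatc1, a calcium-regulated transcription factor, from 567 ± 42.2 to 306 ± 50.1 CPM. Of 32 NF-kB genes 15 were lower and 2 higher (median -0.29), though 3 and 1 without the set term. The largest fall here was in Tnip3, an A20-binding protein, from 134 ± 76.1 to 17.5 ± 8.46 CPM (log2 fold change -2.84, SE 0.12, adjusted p = 1.93e-07). Nfkbid, a nuclear IκB protein, fell from 1809 ± 704 to 837 ± 337 CPM with overlapping groups. Birc3 and Birc2, which encode ubiquitin ligases of this pathway, rose from 92.6 to 252 CPM and from 38.3 to 58.5 CPM, the latter with overlap.

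Genes of the IgE receptor pathway itself were about as often higher as lower. Of 40 tested, 9 were called higher (22.5%) and 6 lower (15%), against 15.1% and 14.4% of all genes. The median was -0.04, with 6 and 2 called without the set term. Fgr, a Src family kinase gene, was at 0 CPM in activated cells and had a mean of 2.62 CPM with DEX. Lyn, the Src kinase that acts first on the receptor, rose from 201 ± 20.0 to 393 ± 12.9 CPM, and Prkcq, a protein kinase C, from 27.8 to 68.2 CPM. The 3 lower genes with the lowest p-values were the Ras inhibitor Spred1 (595 to 305 CPM), the Ras activator Rasgrp4 (102 to 55.4 CPM, with overlap) and the calcium channel Orai1 (66.8 to 36.0 CPM). Fcer1a, the IgE-binding chain, was among the 5 called genes that gained the most CPM. It stood at 6916, 6658, 7652 and 7227 CPM without DEX and 12599, 8053, 9186 and 9813 CPM with it. The groups were apart but the first pair moved most (1.42-fold, log2 fold change 0.50, SE 0.16, adjusted p = 0.0397).

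MAP kinase phosphatases and other feedback inhibitors were lower in 16 of 34 tested genes and higher in 6 (median -0.44), or 7 and 4 without the set term. Rgs16, which speeds the shut-off of G proteins, went from 24.5, 10.4, 12.2 and 16.8 CPM to 1.56, 0.813, 0.78 and 1.24 CPM. This was 1 of the 10 largest falls chosen with groups apart (14.7-fold, log2 fold change -3.88, SE 0.33, adjusted p = 2.05e-05). Socs3, a cytokine signalling inhibitor, fell from 31.2 ± 15.9 to 13.3 ± 9.01 CPM with overlap. Against this direction, the MAP kinase phosphatases Dusp1 and Dusp2 rose, Dusp1 from 13, 17.1, 13.9 and 20.1 CPM to 43.3, 50.3, 70.5 and 72.3 CPM (log2 fold change 1.90, SE 0.14) and Dusp2 from 6.41 ± 2.3 to 24.5 ± 11.3 CPM. Peli2, a ubiquitin ligase gene of Toll-like receptor signalling, rose from 1.46 to 4.52 CPM with overlapping groups.

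Of 27 mRNA decay genes 7 were higher and 6 lower (median -0.16), and 3 and 4 without the set term. Zfp36l2, whose product binds AU-rich elements and starts mRNA decay, rose in every sample, from 249, 324, 275 and 356 CPM to 1097, 1337, 1072 and 1485 CPM (log2 fold change 2.08, SE 0.10, adjusted p = 5.12e-07). Tob1 and Cnot6l, which act in the removal of poly(A) tails, rose from 19.4 to 70.5 CPM and from 90.5 to 200 CPM. The antiproliferative genes Btg2 and Btg1 fell, from 7.44 to 2.21 and from 804 to 498 CPM, as did Zc3h12c, from 194 to 79.0 CPM.

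Known glucocorticoid targets, a list chosen from other tissues, were higher in 16 of 29 tested genes and lower in 7, with a median log2 fold change of 0.87. This list, like the others, was chosen with earlier results of these data known. All 4 samples were above in 13 and below in 5, against 9.13% and 8.3% of all genes. Without the set term the counts were 13 and 3. Tsc22d3, which encodes the glucocorticoid-induced leucine zipper, stood at 43.8, 63.9, 65.1 and 67.9 CPM without DEX and at 874, 726, 834 and 756 CPM with it. The groups were widely separated and each was narrow, apart from a low PEP+/+ sample of titles 1 to 8 without DEX. The rise was 13.6-fold (log2 fold change 3.77, SE 0.16, adjusted p = 1.96e-07). Fkbp5, a co-chaperone that restrains the glucocorticoid receptor, rose 9.17-fold, from 108, 83.8, 106 and 87.6 CPM to 972, 807, 928 and 749 CPM (log2 fold change 3.20, SE 0.10, adjusted p = 1.02e-07). Ddit4, an inhibitor of the growth kinase mTORC1, went from 24.1, 19.3, 31.7 and 28.3 CPM to 234, 217, 242 and 209 CPM, 9.0-fold higher. In both genes the lowest sample with DEX was several times the highest without.

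The transcription factor gene Zbtb16 had 0 reads in all 4 samples without DEX and 160 reads over the 4 with DEX, so that it was at least 56.0-fold higher when the limit of 3 reads over the group is used for 0. The 7 listed targets that were lower included Tgm2, a protein cross-linking enzyme, at 400.3, 798, 325 and 846 CPM without and 100.0, 296, 113 and 249 CPM with DEX. These groups were apart by a small gap, with the samples of titles A to H higher in both treatments, and the log2 fold change was -1.65 (SE 0.12). Sgk1, a kinase that regulates ion transport, fell from 13.4, 13.7, 19.6 and 17.9 CPM to 5.07, 4.07, 4.37 and 3.25 CPM (log2 fold change -1.92, SE 0.18). Errfi1, an inhibitor of the epidermal growth factor receptor, fell from 252 ± 40.4 to 102 ± 17.1 CPM.

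**Figure D2:**
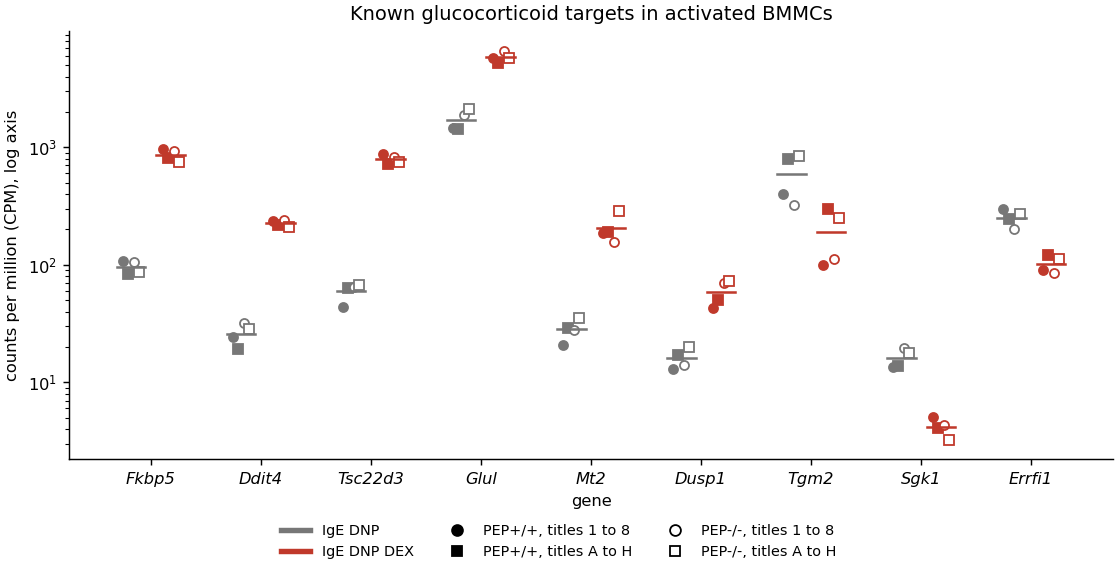
CPM of 9 listed glucocorticoid targets on a log axis, 1 point per sample, with IgE DNP and IgE DNP DEX side by side. The first 6 genes are higher in all 4 samples with DEX and Tgm2, Sgk1 and Errfi1 are lower in all 4.

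The full palindromic glucocorticoid response element, which contains the half-site, was found in 0 of 13 matched targets called higher, in 1 of 5 matched targets called lower, which was Sgk1, and in 0.0365% of all promoters. Sgk1 was the 1 gene of the 8942 matched that held it. The half-site AGAACA was found in 1 of the 13 (7.69%), in 14.2% of all genes called higher, in 12.8% of those called lower, in 12.6% of tested genes and in 16.1% of all promoters. Tsc22d3 was the target that held it, in capitals below and reading TGTTCT in this direction, 185 to 180 bases before 1 of its start sites (chrX:140600660-140600772, minus strand). The printed stretch ends 138 bases before that start, ahead of any base that the GENCODE M21 annotation gives as exon.
Tsc22d3: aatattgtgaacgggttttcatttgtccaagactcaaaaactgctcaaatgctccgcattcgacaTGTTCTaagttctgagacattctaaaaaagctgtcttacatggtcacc

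Among called genes without overlap, the largest rises were in genes that were nearly silent without DEX. Sult1a1, a sulfotransferase of phenols, went from 0.567, 1.36, 1.23 and 1.6 CPM to 318, 282, 245 and 386 CPM. The 4 samples with DEX were alike and the difference was 260-fold (log2 fold change 8.02, SE 0.23, adjusted p = 9.11e-08). Vipr2, a receptor for vasoactive intestinal peptide, went from 0.283, 0.906, 0.736 and 0.885 CPM to 39.1, 40.7, 51.6 and 47.0 CPM, 64.4-fold. Ahsg, which encodes the plasma protein fetuin-A, had 0 reads in all 4 samples without DEX and 9.1, 8.51, 11.8 and 14.5 CPM (508 reads) with it, at least 178-fold higher on the same 3-read limit. Slc28a2, a sodium-driven purine nucleoside transporter, had 0, 0, 0.0818 and 0 CPM without DEX, which is 1 read, and 13.4, 12.4, 49.9 and 36.8 CPM with it. The ratio was 1390 (95% counting interval 250 to 55100), and the PEP-/- samples with DEX were the higher ones. Tlr7, the sensor of single-stranded RNA, had 0, 0.113, 0.0818 and 0 CPM and then 15.2, 7.19, 29.9 and 11.8 CPM, a ratio of 388 (107 to 3210) on 2 against 738 reads.

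The remaining genes of the 10 largest rises were Ptgds, Gm27252, Bdh1, Atp8b3 and Olfr224. Ptgds, which encodes a prostaglandin D synthase, had 0.0945, 0, 0 and 0.0553 CPM and then 8.06, 4.94, 9.67 and 14.4 CPM (ratio 218, interval 60.0 to 1810). Bdh1, a ketone body enzyme, had 0, 0, 0.245 and 0 CPM and then 8.84, 1.88, 9.2 and 2.49 CPM (ratio 84.7, interval 28.7 to 414), with the samples of titles 1 to 8 higher. These intervals cover counting error only. The gene Gm27252, of no known function, rose 92.4-fold, from 0.0945, 0, 0.245 and 0.166 CPM to 12.7, 11.9, 14.3 and 14.3 CPM. Atp8b3, of the phospholipid flippase family, rose 67.5-fold, from 0, 0.113, 0.0818 and 0.166 CPM to 4.94, 4.13, 8.5 and 9.57 CPM. The olfactory receptor gene Olfr224 rose 57.4-fold, from 0.0945, 0, 0.0818 and 0.166 CPM to 4.55, 2.94, 10.2 and 6.03 CPM. As the 10 largest rises and falls were chosen among genes with groups apart, the lack of overlap in them is not a result. Among the 10 largest falls, besides the cytokines, chemokines and Rgs16, was Fbxl21, an F-box gene of the circadian system. It fell 9.85-fold, from 128, 173, 163 and 298 CPM to 10.3, 20.1, 17.9 and 27.6 CPM (log2 fold change -3.30, SE 0.12).

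Of the called genes, 5 gained the most CPM. Besides Fcer1a these were Glul, B2m, Ctla2a and Gm26809. Cpa3, the granule carboxypeptidase, had a larger difference that was not called, at 34738 to 47547 CPM without and 43547 to 57686 CPM with DEX (log2 fold change 0.40, adjusted p = 0.1). Glul, which encodes glutamine synthetase, stood at 1463, 1438, 1885 and 2097 CPM and with DEX at 5734, 5180.3, 6636 and 5755 CPM (3.49-fold, adjusted p = 9.28e-06). B2m, the light chain of MHC class I, stood at 1171, 1069, 1243 and 1214 CPM and then at 4175, 3283, 3404 and 4085 CPM (3.25-fold, adjusted p = 1.38e-05). In both, replicates were close and the treatments far apart. Ctla2a, a cysteine protease inhibitor, went from 2034, 3418, 2168 and 3074 CPM to 6171, 4157, 3444 and 5299 CPM, with groups that nearly touched (1.85-fold, adjusted p = 0.0095). The gene Gm26809, of no known function, went from 3923, 2342, 3946 and 5033 CPM to 5433, 6953, 11581 and 6244 CPM (2.02-fold, adjusted p = 0.00731), the PEP-/- sample of titles 1 to 8 being far above the other three with DEX.

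The 5 called genes that lost the most CPM were Csf2rb2, Gzmb, Actb, Ifitm1 and Cyp11a1. Csf2rb2, a receptor chain for IL3, went from 6844, 7441, 6930.2 and 7449 CPM to 3252, 4359, 4662 and 4259 CPM, 1.7-fold lower. It is nearly identical to Csf2rb, and reads that fit both were not counted. Actb, cytoplasmic actin, went from 4905, 7309.7, 5926 and 7498 CPM to 3646, 4150.3, 3461 and 4149 CPM, 1.61-fold lower. For these genes the falls were modest and the groups were apart. Ifitm1, an interferon-inducible membrane protein, went from 3179.8, 4989.7, 4734 and 5170.4 CPM to 2026, 2099, 2101 and 2590.3 CPM, 1.99-fold lower. Cyp11a1, the first enzyme of steroid hormone synthesis, went from 4975, 4901, 5656 and 5423 CPM to 3037, 2985, 2885 and 2972 CPM, 1.73-fold lower and with hardly any spread among the samples with DEX. Rplp0, a ribosomal protein gene often used as a reference, had 1628, 1608, 1771 and 1573 CPM without DEX and 2779.9, 1755, 2082 and 1868 CPM with it. Its log2 fold change of 0.38 (SE 0.13) missed the threshold (adjusted p = 0.0583), and the PEP+/+ sample of titles 1 to 8 with DEX was the highest.

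The granule contents of the mast cell changed selectively. Of 16 protease genes 6 were lower and 1 higher (median -0.45). Gzmb, the gene of the cytotoxic protease granzyme B, went from 4806, 2578, 5049 and 4084 CPM to 1463, 941, 1785 and 1366 CPM. The treatments did not overlap (2.9-fold lower, log2 fold change -1.54, SE 0.14, adjusted p = 2.86e-05). Gzmc fell from 20.4 ± 7.88 to 2.48 ± 0.607 CPM and the tryptase gene Tpsg1 from 767 ± 268 to 318 ± 79.6 CPM. Ctsc, whose product activates granule proteases, rose from 400.1 ± 112 to 799 ± 239 CPM. These families hold similar copies, and reads that fit several genes were not counted.

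Of 23 genes of histamine, serotonin and serglycin handling 4 were higher (17.4%) and 3 lower (13%), with a median of 0.01. These are near the shares of all genes, 15.1% and 14.4%. Hdc, which makes histamine, rose from 748, 575, 674 and 867 CPM to 1793, 1431, 1657 and 1739 CPM (log2 fold change 1.24, SE 0.14, adjusted p = 0.000129), with no overlap. The serotonin transporter Slc6a4 rose from 2.01 to 6.77 CPM and the chondroitin sulfotransferase Chst15 from 225 to 347 CPM. The amine oxidase Maob fell from 653 to 305 CPM, Ddc, which makes serotonin and dopamine, from 3.05 to 0.895 CPM, and the vesicular amine transporter Slc18a2 from 2999 ± 1192 to 2091 ± 956 CPM with overlap.

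Prostanoid and leukotriene genes were higher in 9 of 19 tested and lower in 2 (median 0.34), though 3 and 0 without the set term. The cyclooxygenase Ptgs1 rose from 167, 334, 203 and 258 CPM to 500.3, 786, 542 and 766 CPM (log2 fold change 1.47, SE 0.12, adjusted p = 2.11e-05), each pair moving by a like amount. Dpep2, which processes leukotrienes, rose from 0.86 to 3.94 CPM. Alox5, which starts leukotriene synthesis, fell from 2133 ± 118 to 1561 ± 92.8 CPM, and Lta4h from 142 to 114 CPM. The inducible cyclooxygenase Ptgs2 had 62.6, 41.4, 38.8 and 43.0 CPM without DEX and 11.1, 13.3, 54.4 and 19.0 CPM with it. Lower values in 3 of the samples with DEX were set against 1 high PEP-/- sample, and the log2 fold change of -1.08 (SE 0.37) missed the threshold (adjusted p = 0.0539).

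Secretion and SNARE genes were lower in 9 of 31 and higher in 4 (median -0.20), or 3 and 2 without the set term. Rab3d, a GTPase of secretory granules, fell from 61.5 to 34.7 CPM and the syntaxin Stx6 from 102 to 61.1 CPM. Mlph, which links granules to myosin, rose from 21.6 ± 3.09 to 67.4 ± 13.9 CPM (log2 fold change 1.67, SE 0.12), Stx3 from 66.1 to 127 CPM and Sytl3 from 265 to 486 CPM with overlapping groups.

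At the cell surface, inhibitory receptors were lower in 9 of 21 and higher in 2 (median -0.39), or 7 and 1 without the set term. The lower ones included Lair1, a collagen receptor (39.8 to 16.9 CPM), Sirpa, the receptor for CD47 (137 to 76.1 CPM), and Milr1, or allergin-1 (36.9 to 17.4 CPM). Gpr35 rose from 4.3 to 9.4 CPM and Cd300a from 329 to 397 CPM, the latter with overlapping groups. Integrin and adhesion genes were lower in 13 of 26 and higher in 2 (median -0.40), but 4 and 2 without the set term. The tetraspanins Cd9 and Cd82 fell from 329 ± 34.6 to 135 ± 15.9 and from 70.5 to 35.4 CPM, and the integrin Itgax from 10.6 to 3.56 CPM with overlap. The integrin chain Itgb3 went the other way, from 49.1, 53.2, 79.9 and 67.5 CPM to 313, 357, 559.8 and 379.8 CPM (log2 fold change 2.72, SE 0.14, adjusted p = 7.6e-07). Cd34, a sialomucin of progenitors and mast cells, also rose, from 559.7, 432, 592 and 509.7 CPM to 1936, 1443, 1824 and 1427 CPM (log2 fold change 1.69, SE 0.11). These 2 rises were seen in every sample.

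Cytokine receptor genes were higher in 9 of 41 (22%) and lower in 6 (14.6%), against 15.1% and 14.4% of all genes. The median was 0.16, with 5 and 3 called without the set term. Il2ra, the α chain of the IL-2 receptor, rose from 172 ± 36.6 to 599 ± 134 CPM, Il7r from 5.51 to 18 CPM and Il18rap, a chain of the IL-18 receptor, from 58.5 to 128 CPM. The receptor kinase Mst1r fell from 10.4 to 1.78 CPM, Tnfrsf9 from 107 to 46.9 CPM and Il21r from 7.83 to 3.61 CPM with overlap. Toll-like and innate receptor genes were called at near the shares of all genes, which were 15.1% higher and 14.4% lower. Of 21 tested, 4 were higher (19%) and 3 lower (14.3%), with a median of 0.12, or 3 and 1 without the set term. Besides Tlr7, the RNA sensor Tlr13 rose from 1.12 to 11.2 CPM and Irak3, an inhibitor of Toll-like receptor signalling, from 35.6 to 83.8 CPM. The inflammasome gene Nlrp3 fell from 279.9 ± 61.4 to 131 ± 11.8 CPM, Unc93b1, a chaperone of Toll-like receptors, from 12 to 7.97 CPM, and Cd14 from 3.4 to 2.07 CPM with overlap. Of 18 purine receptor and transporter genes 9 were lower and 2 higher (median -0.32), or 4 and 1 without the set term. The adenosine receptor Adora3, which enhances degranulation in mouse mast cells, fell from 349 ± 53.3 to 138 ± 33.7 CPM, P2rx1 from 249.6 to 163 CPM and Gpr34 from 59.0 to 39.7 CPM, while Entpd1 rose from 47.9 to 62.2 CPM, the groups of Gpr34 and Entpd1 overlapping.

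Among the metabolic lists, cholesterol synthesis changed in 1 direction only. Of 24 tested genes 20 were called lower and 0 higher, with a median log2 fold change of -0.82. All 4 samples were below in 12, against 8.3% of all genes. Without the set term 8 were called lower. Insig1, a sterol-regulated retention protein, fell from 253, 181, 221 and 164 CPM to 107, 67.6, 78.5 and 56.3 CPM (log2 fold change -1.39, SE 0.10, adjusted p = 6.11e-06). Hsd17b7, of the late pathway, fell from 47.9, 15.7, 39.7 and 17.6 CPM to 8.71, 5.75, 7.95 and 2.68 CPM (log2 fold change -2.17, SE 0.19). Samples of titles 1 to 8 were higher in both treatments, and the groups were still apart. Fdft1, or squalene synthase, fell from 94.0, 75.4, 102 and 79.9 CPM to 48.8, 33.1, 37.7 and 31.8 CPM (log2 fold change -1.20, SE 0.11). The CCAAT box, the letters CCAAT bound by NF-Y, was found in 13 of 14 matched genes called lower (92.9%). It was also in 16 of the 17 matched cholesterol genes tested (94.1%), so it was not particular to those called lower. Its share was 41% of all tested genes and 33.8% of all promoters. The sterol regulatory element motif was found in 0 of the 14, in 17 of the 8942 matched genes tested (0.19%) and in 0.192% of all promoters. It was searched as 1 pattern of 10 letters, and near matches were not counted. With a pattern this rare, 0 of the 14 does not show that these promoters lack such elements. Insig1 (chr5:28071162-28071362, plus strand, ending 50 bases before the start) and Hmgcs1 (chr13:119690101-119690350, plus strand), chosen after these shares were seen as genes of low p-value that hold the box, are shown with it in capitals, where it reads ATTGG.
Insig1: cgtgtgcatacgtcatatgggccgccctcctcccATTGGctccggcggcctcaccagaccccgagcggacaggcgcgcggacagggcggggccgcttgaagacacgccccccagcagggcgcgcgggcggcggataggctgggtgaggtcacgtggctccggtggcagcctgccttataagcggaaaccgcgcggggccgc
Hmgcs1: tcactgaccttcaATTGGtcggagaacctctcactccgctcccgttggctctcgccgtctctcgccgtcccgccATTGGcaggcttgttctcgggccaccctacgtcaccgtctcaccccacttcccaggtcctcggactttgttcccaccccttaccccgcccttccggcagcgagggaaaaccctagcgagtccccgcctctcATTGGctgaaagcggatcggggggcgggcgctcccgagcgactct

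Of 32 other lipid genes 12 were lower and 4 higher (median -0.08), and 2 and 3 without the set term. Elovl6, a fatty acid elongase, fell from 9.89 to 2.96 CPM, the nuclear receptor Ppard from 51.6 to 26.4 CPM and Acsl4, which activates arachidonic acid, from 314 to 177 CPM with overlap. The mitochondrial carrier Ucp2 rose from 648, 959, 802 and 968 CPM to 1779, 3009, 1809 and 2816 CPM, with no overlap. Cpt1a, which admits fatty acids to mitochondria, rose from 34.9 to 58.0 CPM, and the cholesterol exporter Abca1 from 3.71 to 11.4 CPM with overlap. Glycolysis, glucose transport and hypoxia genes were lower in 12 of 32 and higher in 2 (median -0.28), and 3 and 1 without the set term. Hexokinase 2, Hk2, fell from 46.5 ± 11.7 to 11.4 ± 3.03 CPM (log2 fold change -1.97, SE 0.18), Pfkl from 52.7 to 29.4 CPM and Pdk1 from 18.2 to 8.62 CPM. Pfkfb3, which makes an activator of phosphofructokinase, rose from 80.5, 69.2, 114 and 103 CPM to 253, 338, 499.7 and 399.7 CPM, and Gpi1 rose from 540.4 to 673 CPM with overlap.

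Of 28 serine, one-carbon and stress response genes 10 were lower and 5 higher (median -0.41), or 6 and 2 without the set term. Phgdh, the first enzyme of serine synthesis, fell from 9.87 to 2.43 CPM, the folate enzyme Mthfd2 from 31.2 to 12.5 CPM with overlap and the arginine transporter Slc7a1 from 184 to 66.3 CPM. Slc3a2, the shared heavy chain of amino acid transporters, rose from 818 ± 71.5 to 1940.3 ± 174 CPM, Jdp2 from 35.4 to 87.6 CPM and Cebpb from 9.5 to 28.1 CPM with overlap. Antioxidant, iron and metallothionein genes were higher in 8 of 28 and lower in 6 (median -0.11), or 3 and 2 without the set term. Prdx6, a peroxiredoxin, rose from 80.2, 87.0, 89.3 and 84.8 CPM to 467, 472, 462 and 584 CPM (log2 fold change 2.56, SE 0.11, adjusted p = 2.6e-07), a wide gap between narrow groups. The metallothioneins Mt2 and Mt1 rose from 28.3 to 205 CPM and from 284 to 1068 CPM. Srxn1, or sulfiredoxin, fell from 1835 ± 299.8 to 776 ± 129 CPM, the transferrin receptor Tfrc from 106 to 49.5 CPM and Nqo1 from 73.4 to 49.8 CPM with overlap.

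Lysosomal genes were higher in 21 of 52 and lower in 2 (median 0.24), but 6 and 0 were called without the set term. All 4 samples were above in 9 and below in 1, against 9.13% and 8.3% of all genes. Glb1, or β-galactosidase, rose from 220.2, 206, 256 and 204 CPM to 1381, 1193, 1351 and 1059 CPM (log2 fold change 2.52, SE 0.11, adjusted p = 2.77e-07), with no overlap between treatments. The cathepsin Ctsh rose from 0.369 to 3.24 CPM. The transcription factor Tfe3 fell from 105 to 82.8 CPM and the proton pump subunit Atp6v1a from 135 to 99.7 CPM with overlap. AP-1 letters were found in 4 of 17 matched lysosomal genes called higher (23.5%), in 15% of all tested lysosomal genes that were matched, in 6.49% of all genes called higher and in 5.49% of tested genes.

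**Figure D3:**
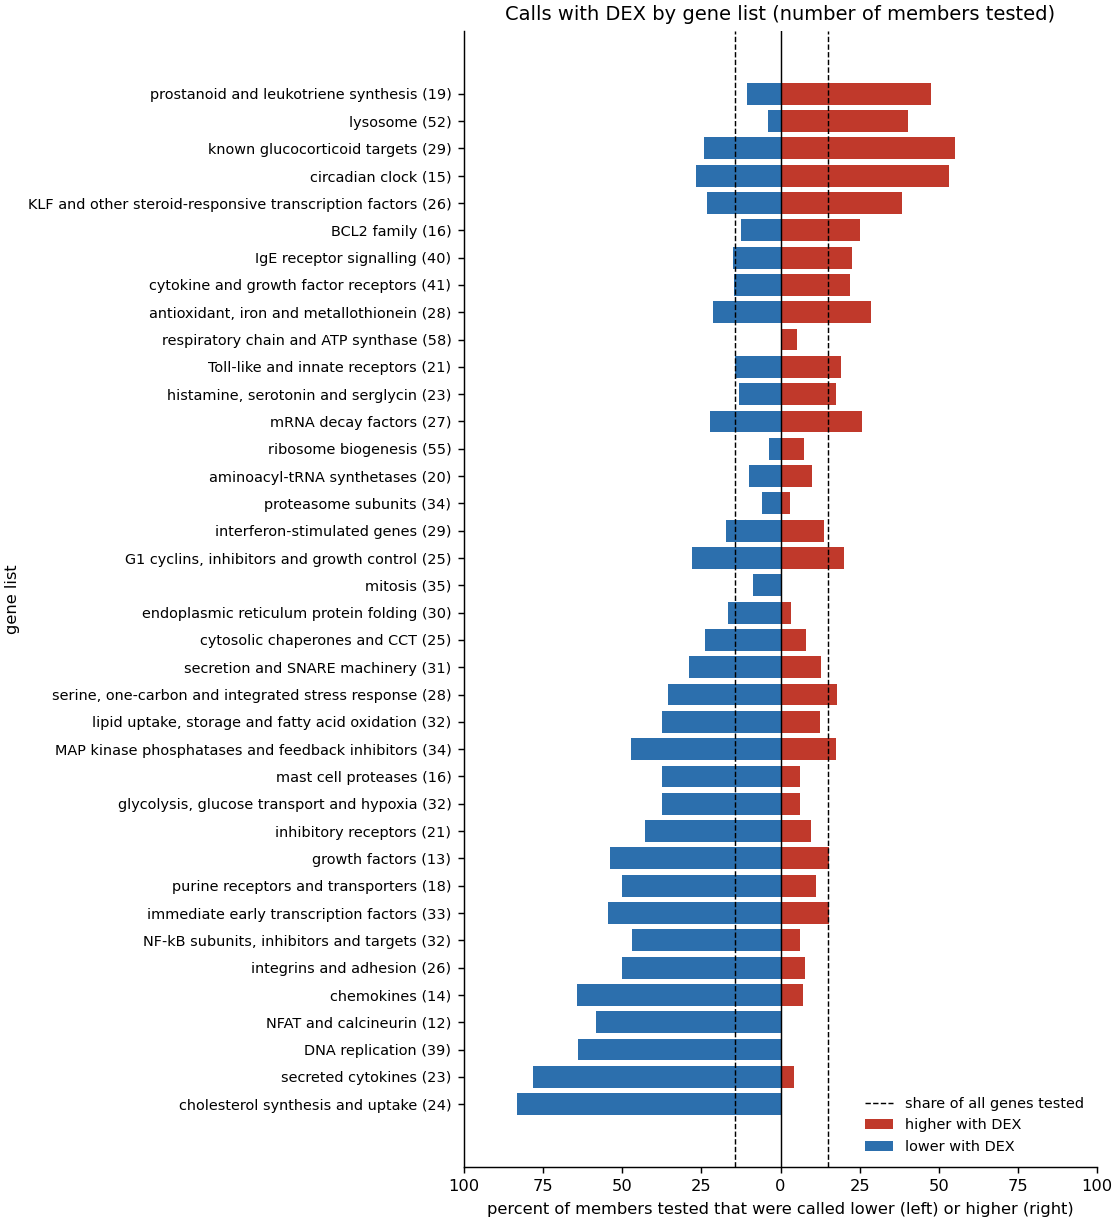
Percent of the tested members of each gene list that were called lower (left) or higher (right) with DEX, with the number tested in brackets. Dashed lines mark the shares of all genes tested, 14.4% lower and 15.1% higher; cholesterol synthesis and the cytokines reach farthest to the left, and known glucocorticoid targets and the circadian clock farthest to the right.

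DNA replication genes fell together within the replicate sets, while the treatments overlapped across them. Of 39 tested, 25 were called lower and 0 higher (median -0.64), yet 0 were below in all 4 samples and 1 was called without the set term. The samples of titles 1 to 8 had higher levels than those of A to H in each treatment and genotype for the 3 genes below. Lig1, which joins DNA fragments at the fork, had 103, 69.4, 63.5 and 44.2 CPM without DEX and 49.0, 37.1, 29.7 and 26.8 CPM with it. Rrm2, a subunit of ribonucleotide reductase, had 187, 75.1, 102 and 39.9 CPM against 69.6, 38.1, 46.8 and 25.1 CPM. Pcna, the sliding clamp, had 491, 320.3, 355 and 281 CPM against 309.9, 191, 211 and 152 CPM. In all 3 genes each pair fell and the groups overlapped, with log2 fold changes of -0.92 (SE 0.11), -1.03 (SE 0.13) and -0.73 (SE 0.10). The E2F motif TTTNGCGC was found in 6 of 20 matched genes called lower (30%) and in 6 of 31 matched replication genes tested (19.4%). Its share was 2.46% of all tested genes and 1.13% of all promoters. The CCAAT box was found in 13 of the 20 (65%) and in 18 of the 31 (58.1%). Mcm5 (chr8:75109259-75109508, plus strand) and Mcm6 (chr1:128359706-128359955, minus strand), subunits of the replicative helicase chosen after these shares were seen, hold overlapping E2F matches on both strands, in capitals. Mcm6 also holds a separate match, likewise in capitals, 47 to 40 bases before the start.
Mcm5: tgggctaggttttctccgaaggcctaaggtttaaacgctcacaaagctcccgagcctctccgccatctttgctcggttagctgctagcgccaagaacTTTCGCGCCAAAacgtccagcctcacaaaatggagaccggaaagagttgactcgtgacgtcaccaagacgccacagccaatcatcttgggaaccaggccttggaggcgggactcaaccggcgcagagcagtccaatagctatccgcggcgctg
Mcm6: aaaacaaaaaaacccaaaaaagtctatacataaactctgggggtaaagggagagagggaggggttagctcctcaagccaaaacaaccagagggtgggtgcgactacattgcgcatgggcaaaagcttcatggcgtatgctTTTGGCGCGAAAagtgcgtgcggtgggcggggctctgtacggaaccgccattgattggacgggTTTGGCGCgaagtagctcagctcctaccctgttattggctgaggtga
Mitotic genes did not fall in the same number: 3 of 35 were called lower and 0 higher (median -0.13), and 0 were called without the set term. Cdk1 fell from 82.6 ± 20.0 to 49.6 ± 9.5 CPM, Top2a from 215 ± 71.4 to 130.1 ± 12.9 CPM and Hmmr from 46.8 to 31.6 CPM, with overlap for Cdk1 and Hmmr. The CCAAT box was found in 24 of 31 matched mitotic genes (77.4%) and the E2F motif in 1 of the 31.

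Among G1 cyclins, inhibitors and growth control genes 7 of 25 were lower and 5 higher (median -0.11), but 1 and 1 without the set term. The kinase Cdk6 fell from 27.6 to 9.85 CPM, and the cyclin-dependent kinase inhibitors Cdkn2b and Cdkn1a fell from 8.56 to 3.25 and from 732 to 425 CPM. The inhibitor Cdkn1b rose from 48.7 to 64.9 CPM, the transcription factor Foxo3 from 96.3 to 148 CPM and the pocket protein Rbl2 from 76.4 to 119.6 CPM, with overlap for Cdkn1b and Rbl2. Circadian clock genes were higher in 8 of 15 and lower in 4 (median 0.70), or 5 and 3 without the set term. Per1, a clock repressor and known receptor target, rose from 33.4, 51.0, 37.6 and 47.7 CPM to 85.2, 156, 118 and 158 CPM (log2 fold change 1.62, SE 0.12), with no overlap. Cry2 rose from 15.5 ± 1.53 to 33.8 ± 2.07 CPM and Ciart from 0.499 to 3.72 CPM. Hlf fell from 16.7 to 5.44 CPM, Nfil3 from 47.1 to 25.6 CPM and Per3 from 13.5 to 6.53 CPM.

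Of 16 BCL2 family genes 4 were higher (25%) and 2 lower (12.5%), against 15.1% and 14.4% of all genes. The median was 0.06, with 2 and 1 called without the set term. Bcl2, which protects cells from apoptosis, rose from 65.7, 100.3, 39.7 and 51.9 CPM to 216, 362, 241 and 278 CPM (log2 fold change 2.18, SE 0.17, adjusted p = 1.2e-05). The pro-apoptotic gene Bcl2l11 (Bim) fell from 144, 129, 148 and 166 CPM to 33.9, 58.5, 48.4 and 54.1 CPM (log2 fold change -1.57, SE 0.14), while the pro-apoptotic genes Bmf and Bid rose from 1.87 to 9.9 CPM and from 30.5 to 44.5 CPM, the latter with overlap. Bcl2l2 fell from 28.4 to 19.1 CPM. Of 26 KLF and other steroid-responsive factors 10 were higher and 6 lower (median 0.05), or 3 and 3 without the set term. The higher ones included Zbtb16, Cebpb, Klf2 and Klf10, with the values given for them in other lists, and among the lower ones were Runx2, Runx1 and Klf16, falling from 7.65 to 3.29, from 240.1 to 131 and from 35.0 to 21.3 CPM. Of 29 interferon-stimulated genes 5 were lower (17.2%) and 4 higher (13.8%), near the shares of all genes, 14.4% and 15.1%. The median was -0.04, and 1 and 1 were called without the set term. Ifitm2 fell from 824 to 513 CPM, Ifih1 from 11.5 to 6.92 CPM and Irf9 from 40.7 to 28.0 CPM, and Gbp2 rose from 25.2 to 42.7 CPM, Stat2 from 41.0 to 63.7 CPM and Ifi35 from 23.2 to 36.4 CPM. Of these 6 genes, Ifitm2 and Gbp2 had groups apart.

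The machinery of protein synthesis, folding and breakdown and of respiration had few calls. Of 55 ribosome biogenesis genes 4 were higher and 2 lower (median -0.04), with Polr1a, Utp14a and Gnl3 higher and Nop58 and Ebna1bp2 lower. In PEP-/- samples only, 15 were higher and 2 lower (median 0.14), and in PEP+/+ samples only 0 and 2 (median -0.22). Over all genes, the fit of PEP-/- samples called 2026 higher and 2149 lower, and that of PEP+/+ samples only 507 and 501. With both genotypes but without the set term, 1 ribosome biogenesis gene was called higher and 0 lower. Of 20 aminoacyl-tRNA synthetases 2 were higher (Qars, Vars) and 2 lower (Aars, Wars), with a median of -0.10, or 1 and 0 without the set term. Of 34 proteasome subunits 1 was higher (Psma6) and 2 lower (Psmd1, Psmd2; median -0.01), and of 58 genes of the respiratory chain and ATP synthase 3 were higher, among them Ndufs3 and Atp5c1, and 0 lower (median 0.07). In either of the proteasome and respiratory lists 0 genes were called without the set term. The log2 fold changes of these 14 named genes lay between -0.60 and 0.91, and the groups overlapped for all but Utp14a, Qars and Aars. Of 25 cytosolic chaperones 6 were lower and 2 higher (median -0.09), or 2 and 1 without the set term, with Dnajb1 falling from 561 ± 116 to 277 ± 64.6 CPM, Hsp90aa1, a chaperone of the glucocorticoid receptor, from 452 ± 74.4 to 273 ± 14 CPM and Stip1, its co-chaperone, from 133 to 84.2 CPM with overlap. Dnaja1 and Hspa4 rose from 139.6 to 204 and from 305 to 390.1 CPM. Of 30 endoplasmic reticulum folding genes 5 were lower, among them the oxidase Ero1l (2639 to 1766 CPM), Creld2 and Hsp90b1, and 1 was higher, Atf6 (median -0.09), with overlap for Creld2 and Atf6, while without the set term 0 were called.

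**Figure D4:**
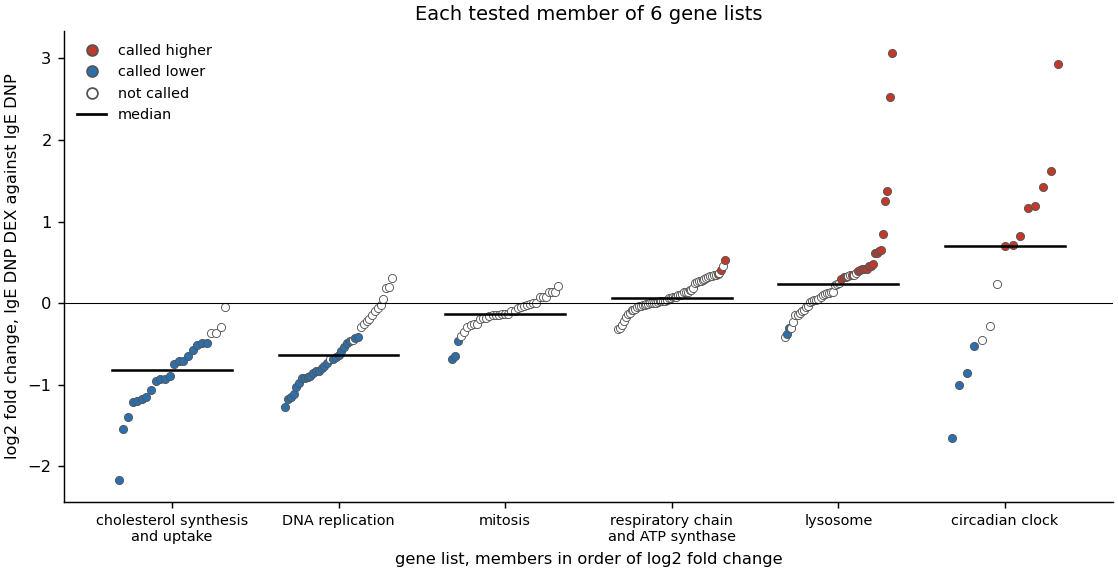
Log2 fold change with DEX in activated cells of each tested member of 6 gene lists, filled where called higher or lower and open where not called, with a line at the median. Cholesterol synthesis and DNA replication lie almost wholly below 0, mitosis and the respiratory chain lie around 0, and the lysosome and clock lists lie mostly above it.

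The response of activated cells was set beside that of sensitized cells without antigen (IgE DEX against IgE, 4 samples each), which shares no samples with it. In sensitized cells 2667 of 12259 genes were higher with DEX (21.8%) and 2349 lower (19.2%). Of 11805 genes tested in both, 3458 were called in activated and 4936 in sensitized cells. The 2616 called in both were 75.7% of the former and 53% of the latter, and 2561 of them had the same direction and 55 the opposite one. Across these genes, which are not independent replicates, the log2 fold changes had a Pearson correlation of 0.842. Cholesterol synthesis (0 higher and 22 lower of 24, median -0.84), DNA replication (0 and 34 of 40, median -0.70) and lysosomal genes (27 and 2 of 52) had like counts without antigen. Glb1, Itgb3 and Sult1a1 had log2 fold changes of 2.46, 2.66 and 8.42 there, against 2.52, 2.72 and 8.02 in activated cells.

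The test of the difference between both responses called 324 of 12762 genes (2.54%), of which 206 had a lower and 118 a higher log2 fold change in activated cells. These included 7 of the listed cytokines and 4 of the chemokines. Tnf changed by 0.02 on the log2 scale in sensitized cells, where its mean was 1.21 CPM, and the difference was -3.44 (adjusted p = 3.62e-05). For Ccl3, Ccl7 and Ccl4 the differences were -3.51, -2.59 and -2.18 (adjusted p = 6.38e-06, 0.000311 and 0.00148). Il13 was lowered in sensitized cells as well (log2 fold change -2.91), and its difference of -1.40 was not called (adjusted p = 0.108).

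The called genes also included 13 of the MAP kinase phosphatase and feedback inhibitor list, 11 of the NF-kB list and 11 of the known glucocorticoid targets, each a larger share of its list than the 2.54% of all genes. Dusp1 rose by 4.88 on the log2 scale in sensitized cells and by 1.90 in activated cells (difference -2.99, adjusted p = 1.93e-05), and Per1 by 2.66 and 1.62 (difference -1.04, adjusted p = 0.000259). Ddit4 went the other way, with 2.06 and 3.17 (difference 1.12, adjusted p = 0.000367). Atf3 rose with DEX from 0.0797 to 2.33 CPM without antigen and fell from 147 to 22.2 CPM with it (difference -7.40, SE 0.85, adjusted p = 4.57e-05). Bcl2l11 had log2 fold changes of 0.03 and -1.57 (difference -1.60, adjusted p = 3.84e-05) and Nlrp3 of 0.46 and -1.06 (difference -1.52, adjusted p = 8.16e-05). Ptgs2 was called higher with DEX in sensitized cells, from 0.37 to 4.9 CPM, and had the lower but uncalled values given above in activated cells (difference -4.83, adjusted p = 0.00123).

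Genes with the lowest p-values of this test included Arl5b, Dusp4, Jcad and Mir155hg. Dusp4, a phosphatase of nuclear MAP kinases, had means of 3.48 CPM with IgE, 64.9 with IgE DEX, 57.2 with IgE DNP and 48.7 with IgE DNP DEX (difference -4.39, adjusted p = 3.4e-07). Either agent alone gave a level near that with both. Jcad, a junction protein gene, had 14.4, 194, 109 and 162 CPM in the same order (difference -3.19, adjusted p = 3.4e-07). In both genes DEX raised the level without antigen. With antigen, Jcad was still called higher (log2 fold change 0.58, adjusted p = 0.0171), while Dusp4 was not called (-0.22, adjusted p = 0.271). Arl5b, a small GTPase, had 14.7, 176, 41.6 and 97.2 CPM and rose in both settings (difference -2.37, adjusted p = 3.4e-07). Mir155hg, the host gene of miR-155, had 1.17, 2.85, 48.0 and 11.9 CPM, a rise without antigen and a fall with it (difference -3.37, adjusted p = 2.73e-06).

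**Figure D5:**
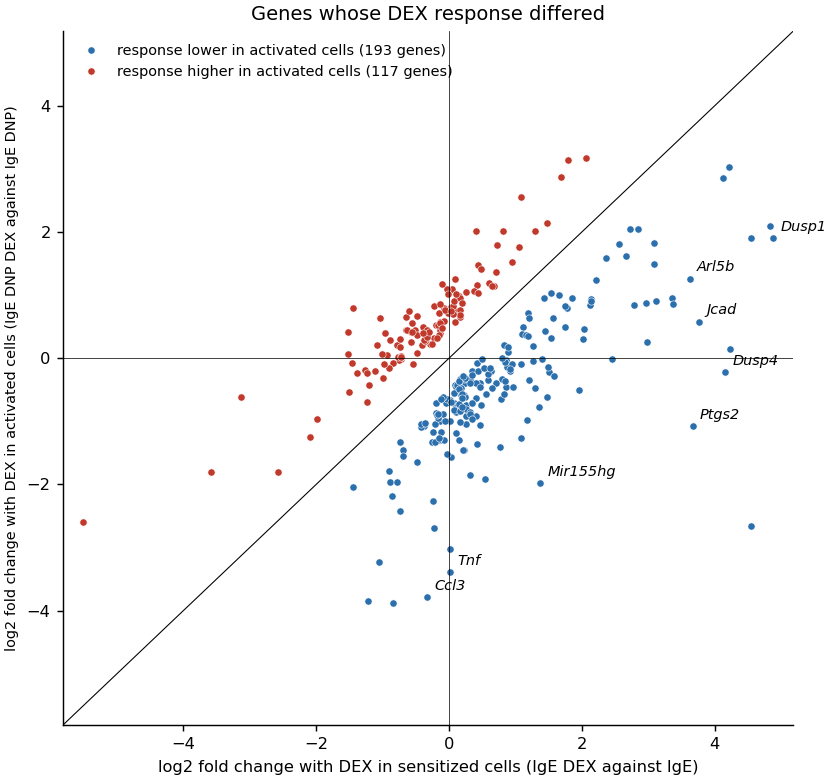
Log2 fold change with DEX in sensitized cells (horizontal) and in activated cells (vertical) for the 310 genes called in the test of the difference and tested in both settings, coloured by its direction. The 193 genes with a lower response in activated cells lie below the diagonal and the 117 with a higher one above it; 51 of the 310 were called in opposite directions.

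Pooling both genotypes left no called difference between them: the genotype by DEX term of edgeR called 0 of 12050 genes, with 222 at an unadjusted p under 0.05, and DESeq2 called 0, with 116. Without the PEP+/+ sample of titles A to H with DEX, 772 genes were called, and without that of titles 1 to 8, 2 were. The lowest p-values belonged to Tnf, Gnl3, Ptpn22, Gm8355 and Aen, with log2 differences of 1.04, 0.83, -2.21, 1.32 and 0.74 between the genotypes (adjusted p = 1 each). For Ptpn22, which the mutation removes, both PEP+/+ pairs rose with DEX, from 79.9 to 160.2 CPM and from 105 to 175 CPM. The PEP-/- samples had 1.39 and 3.04 CPM without DEX and 0.546 and 1.24 CPM with it. The pooled log2 fold change of 0.41, which was not called (adjusted p = 0.376), includes these PEP-/- samples and so does not describe cells that express the gene.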

How the data were processed

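RNA was measured in 16 BMMC samples with stranded mRNA libraries. The authors aligned paired-end reads with TopHat2 to GRCm38 and deposited raw counts per gene from HTSeq; whether strand was used in counting is not given in the sources used here, so antisense and overlapping genes are uncertain, and reads carry no molecular identifiers. Reads that fit several places were not counted (24.0 to 37.8% of the reads listed in the 8 samples), and all rows that name no gene (31.3 to 49.6%) were left out of totals.

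Counts were analysed in R 4.3.3 with edgeR 4.0.16 (filterByExpr with a minimum count of 10 and a minimum total of 15, TMM, quasi-likelihood test, Benjamini-Hochberg adjustment over all genes kept, called under 0.05) with terms for genotype, replicate set and DEX, which left 4 residual degrees of freedom. The common biological coefficient of variation was 0.153. Printed adjusted p-values are from edgeR, and DESeq2 1.42.0 was an alternative. Genotype by DEX was an added term in the 8 samples (3 residual degrees of freedom). The difference between activated and sensitized cells was the antigen by DEX term of a fit over all 16 samples with terms for genotype, set, antigen and DEX (10 residual degrees of freedom). DEX in sensitized cells was fitted in the form of the first fit on the 8 samples without antigen, after the data were seen. Scripts were tested on simulated data. The replicate sets come from the sample titles (numbers or letters). Deviations of same-set samples from their group means correlated at 0.464 to 0.85 in all 6 pairs of groups, so the set was kept as a block. Replicates differed by more than sampling noise (chi-square per degree of freedom 50.4 to 150). Gene IDs were matched to symbols for 96.21% of 39179 IDs.

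The members and gene lists were chosen with earlier results of these data known. Named genes are 8 genes the study names or labels, the 10 largest rises and falls among called genes with groups apart and at least 5 CPM, the 5 largest gains and losses of CPM among called genes, up to 3 called members with the lowest p-value per list and direction, and 5 per test of a difference. A few genes that this rule picks are not reported here. C1qc, Csf2rb, Itga2b, Cd200r3, Mcpt8, Prss34, C1qa, Fgr, Cpa3, Hba-a1, Hmgcs1, Mcm5 and Mcm6 were named besides, after their values were seen.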

Additional observations from a re-analysis of the deposited data

Results flagged for a closer look

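In 68 groups of 4 samples examined for the genes with values per sample, 4 had a sample set apart from the other three by Dixon's criterion, and chance alone gives about 1 in 20. These were the low Tsc22d3 value of 43.8 CPM in the PEP+/+ IgE DNP sample of titles 1 to 8, the values of Slc28a2 (0.0818 CPM) and Bdh1 (0.245 CPM) in the PEP-/- IgE DNP sample of titles 1 to 8, which are 1 and 3 reads where the other three had 0, and the high Ifitm1 value of 2590.3 CPM in the PEP-/- IgE DNP DEX sample of titles A to H.

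The response to DEX differed between activated and sensitized cells, by edgeR's test of the difference, among others for Arl5b (-2.37 on the log2 scale), Dusp4 (-4.39), Jcad (-3.19) and Mir155hg (-3.37). Each of these 4 responses was lower in activated cells.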

How the results depend on the processing

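Against 1824 genes higher and 1730 lower, the counts were 640 and 554 with no replicate block, 253 and 142 when tested against a log2 fold change of 1, 507 and 501 in PEP+/+ samples only, and 862 and 882 in samples titled 1 to 8 only; samples titled A to H only gave 993 higher. Leaving out 1 sample gave 1069 to 2336 higher and 1169 to 2148 lower, the higher count falling most without PEP-/- IgE DNP replicate 1 (titles 1 to 8; 1069), PEP-/- IgE DNP DEX replicate 2 (titles A to H; 1099) and PEP-/- IgE DNP replicate 2 (1128). All 1194 genes called with no replicate block were among the 3554, with the same direction, and the block changed no direction among the 203 called genes that are named, of which 66 missed the threshold without it. The share of calls that were higher was 51.3%, and 45.7 to 64.1% over the alternatives. The genotype by DEX count of 0 became 21 with no filter on low counts and ranged from 0 to 772 when a sample was left out (772 without PEP+/+ IgE DNP DEX replicate 2). The count of 324 genes whose response differed between activated and sensitized cells became 70 with no replicate block, 500 with DESeq2 and 206 to 418 without 1 sample (206 without PEP-/- IgE DNP replicate 2). The causes were not tested. Signs turned only for uncalled genes: Ptpn22 (0.41) was -0.27 with all 16 samples in the fit, -0.10 with DESeq2 and -1.29 in PEP-/- samples only; Gm8355 (0.31) was -0.35 in PEP+/+ samples only; and Aen (0.00) was -0.00 with no replicate block, -0.03 with all 16 samples, -0.02 with DESeq2 and with its size factors, -0.01 with upper quartile scaling, -0.37 in PEP+/+ samples only, -0.07 in samples titled A to H only and -0.12 to 0.11 without 1 sample. The median log2 fold change of all genes was 0.026 with TMM, 0.004 with DESeq2's size factors and 0.013 with upper quartile scaling.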
